A study of Rattus norvegicus with 32 samples.

Results

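Genes of the IL-6 and CNTF receptor family were followed through 10 members of the 32623 genes listed for rat liver sinusoidal endothelial cells (LSECs). The members were found by symbol and are the receptor genes Cntfr, Il6r, Il6st, Lifr and Osmr, the ligand genes Il6, Lif and Osm, and the signalling genes Stat3 and Socs3. Cntfr was chosen by its fall at cirrhosis, that is on its levels in healthy and cirrhotic LSECs of the CCl4 experiment. Every comparison of the healthy or the cirrhotic group with another group describes Cntfr without a test. All 10 genes had enough counts to be tested in each of 6 comparisons.

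The cytokines of this family signal through a shared receptor subunit, gp130, which Il6st encodes. IL-6 and CNTF first bind receptors of their own, encoded by Il6r and Cntfr, whereas LIF and oncostatin M engage gp130 together with the receptors encoded by Lifr and Osmr. Janus kinases bound to these receptors phosphorylate STAT3, which moves to the nucleus and switches on genes that include Socs3, whose product binds gp130 and dampens the signal. In the liver this pathway is best known for the acute-phase response of hepatocytes, and LSECs are the fenestrated endothelial cells that line the hepatic sinusoids.

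The study compared LSEC transcriptomes along the progression of chronic liver disease. CCl4, a hepatotoxin, was given by inhalation to male Wistar Han rats that drank water with phenobarbital, for 2 weeks (acute injury, n = 5), 6 weeks (fibrosis, n = 5) or 12 to 14 weeks (cirrhosis, n = 6), and untreated Wistar Han rats were the healthy group (n = 6). The labels of the cirrhotic libraries name CCl4 without a duration, which comes from the description of the study, and whether healthy rats received phenobarbital is not given in the sources used here. In the experiment with thioacetamide (TAA), another hepatotoxin injected into the peritoneum, 5 libraries were labelled control and 5 TAA control. The study describes saline-treated and TAA-cirrhotic Sprague-Dawley males, while the labels name Wistar Han for all libraries, and which of the labelled groups received TAA was not settled. Cells were isolated by perfusion, digestion and an iodixanol density gradient, several days after the last toxicant in the CCl4 and TAA models, and ages are not given in the sources used here.

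Libraries held between 25646531 and 46464289 counts. Levels are given as CPM, the counts relative to library size with TMM factors, computed separately for the 22 libraries of the CCl4 experiment and the 10 of the TAA experiment, so that levels are not set against each other across these experiments. Of 12 listed LSEC marker genes, 11 were in the files and detected in every group. Their summed level was 17100 to 32500 CPM in healthy, 3780 to 4470 CPM in acute, 2590 to 3760 CPM in fibrotic and 17000 to 22300 CPM in cirrhotic libraries, so acute and fibrotic libraries stood apart from the others. All 9 hepatocyte markers were detected in every group and summed to 1280 to 28000 CPM in healthy, 143 to 922 CPM in acute, 1290 to 5060 CPM in fibrotic and 3010 to 15000 CPM in cirrhotic libraries. The 9 Kupffer cell or macrophage markers summed to 281 to 2700 CPM in healthy and 681 to 2560 CPM in cirrhotic libraries, against 66.5 to 201 CPM in acute and 28.3 to 172 CPM in fibrotic ones, where Timd4 was at 0. A list of 12 immediate-early genes, which cells switch on within minutes of stress such as tissue digestion, summed to 43500 to 74400 CPM in healthy, 1260 to 3230 CPM in acute, 2490 to 3530 CPM in fibrotic and 24000 to 49400 CPM in cirrhotic libraries.

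**Figure D1:**
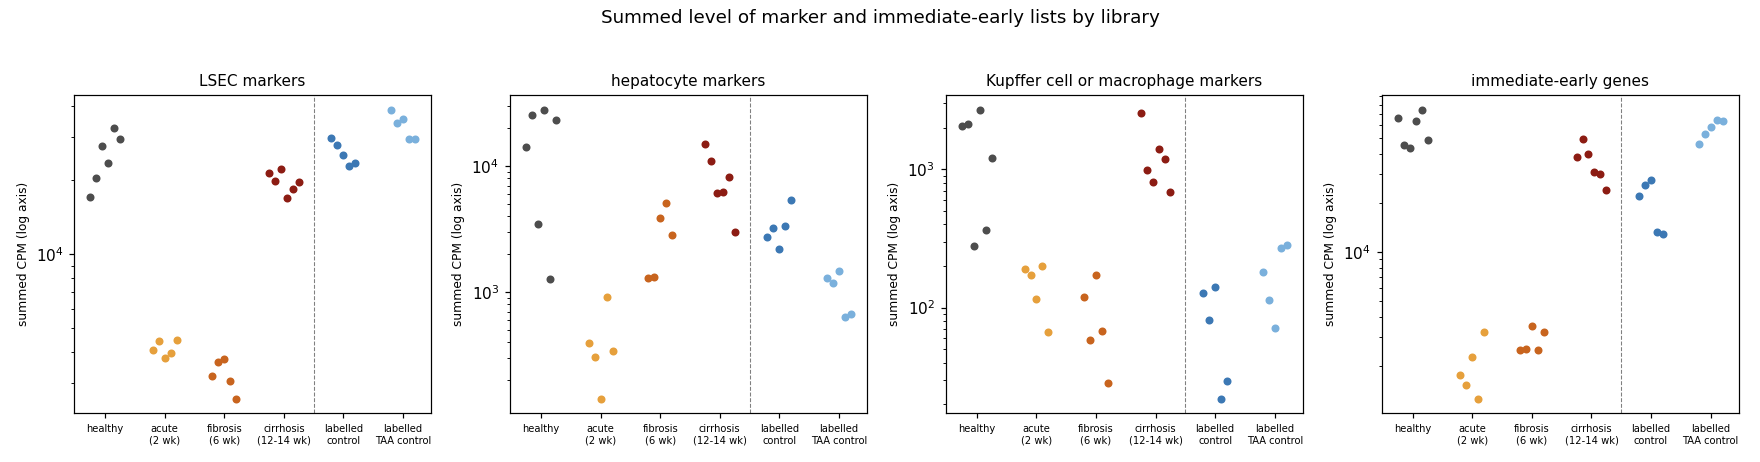
Summed CPM (log axis) of the LSEC, hepatocyte, Kupffer cell or macrophage and immediate-early lists, with 1 point per library and groups along the horizontal axis; the dashed line separates the CCl4 from the TAA experiment, which were scaled separately. LSEC markers and immediate-early genes of the acute and fibrotic libraries lie below those of all healthy and cirrhotic libraries.

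Most tested members differed between healthy LSECs and those of acute injury or fibrosis, and so did most genes. A gene counted as differentially expressed (DEG) when its fold-change in limma-voom exceeded 1.5 and its p-value, before adjustment, was under 0.05, so that a DEG can have an adjusted p above that. Leaving Cntfr out, 7 of 9 members were DEG in acute injury, 2 higher and 5 lower than in healthy LSECs, where 74.1% of all genes tested were DEG (35.8% higher and 38.3% lower). In fibrosis 8 of 9 were DEG, 3 higher and 5 lower, against 71.2% of all genes (35.8% higher and 35.4% lower). In cirrhosis 3 of 9 were DEG, 2 higher and 1 lower, against 54.5% (28.8% higher and 25.7% lower). Groups did not overlap for 5, 6 and 1 of the 9 members in these comparisons, against 60.1%, 58.7% and 27.3% of all genes. From fibrosis to cirrhosis 7 of 9 members were DEG, 6 higher and 1 lower, where 64.2% of all genes were (34.5% higher and 29.7% lower), and the groups did not overlap for 7 of 9, against 62.9%. From acute injury to fibrosis 4 of 10 were DEG, 3 higher and 1 lower, where 15.7% of all genes were (14.3% higher and 1.39% lower). The 3 of 9 in cirrhosis became 5 with library weights or without healthy replicate 1, and 6 with library size alone in place of TMM. The median log2 fold-change of all genes against healthy LSECs was -0.09 in acute injury, -0.03 in fibrosis and 0.07 in cirrhosis. Scaling by library size alone, without TMM, shifted these medians to 0.32, 0.37 and 0.42. The share of DEG that were higher then moved from 50.3% to 60.7% in fibrosis and from 52.8% to 71.2% in cirrhosis.

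**Figure D2:**
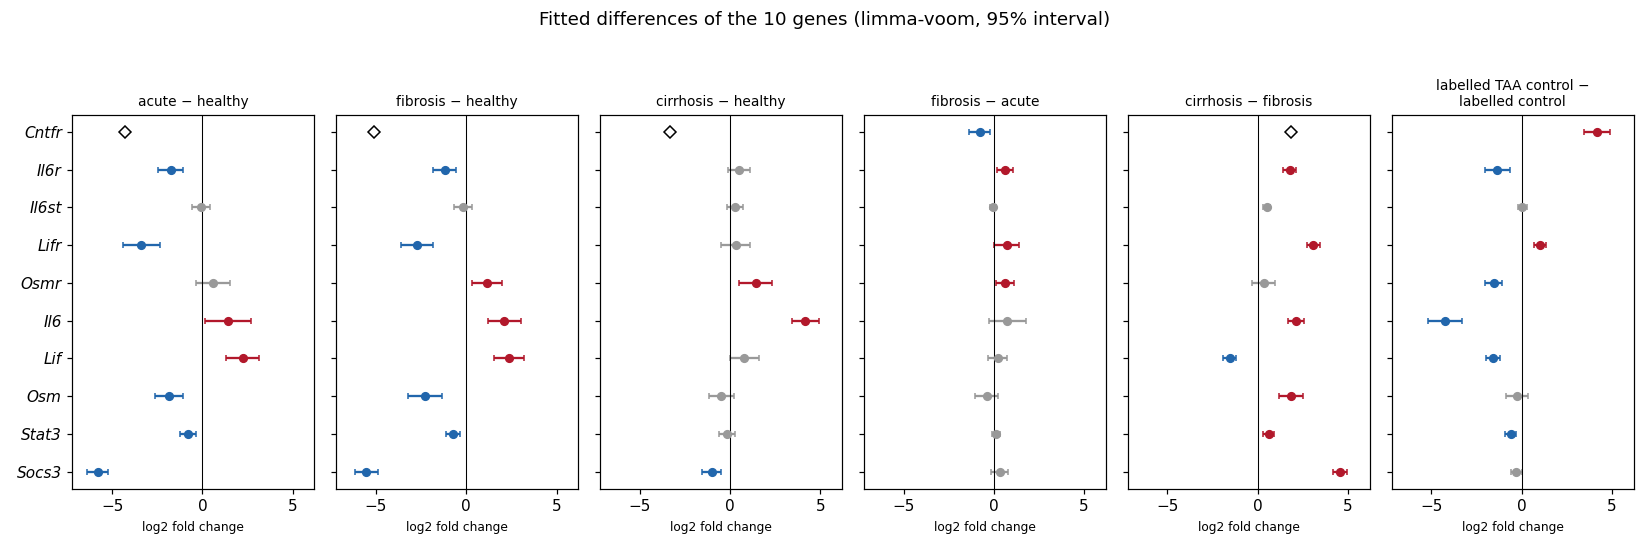
Log2 fold-change of each member (limma-voom) in 6 comparisons, one panel each, with the 95% interval as a bar; red circles were higher and blue circles lower DEG, grey circles were not DEG, and open diamonds show Cntfr where no test was made. Il6 and Osmr lie to the right of 0 in all 3 comparisons with healthy LSECs, whereas Socs3 lies to the left.

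Cntfr (ENSRNOG00000047307), the ligand-binding receptor of CNTF, had its highest levels in healthy LSECs. The healthy libraries ranged from 54.3 to 129 CPM with a median of 99.2 CPM, and the cirrhotic ones from 3.27 to 15.9 CPM with a median of 10.8 CPM. In acute injury the 5 libraries had 2.88, 4.48, 4.76, 6.04 and 6.65 CPM, and in fibrosis 1.78, 2.39, 2.58, 2.60 and 3.71 CPM. No library with CCl4 reached the lowest healthy one, while acute, fibrotic and cirrhotic libraries overlapped with their neighbours in the order of levels. The fitted log2 fold-change from healthy LSECs was -4.27 in acute injury, -5.11 in fibrosis and -3.35 in cirrhosis, so the level was already low at the first stage sampled. In bulk samples, fewer cells that express a gene and less RNA of it per cell cannot be told apart. Acute and fibrotic libraries also had lower LSEC marker sums than healthy ones, and their part in the level of Cntfr was not tested. Cntfr could be tested between acute injury and fibrosis, and was lower in fibrosis with a log2 fold-change of -0.78 (SE 0.266, adjusted p = 0.0598 from limma-voom).

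Il6r (ENSRNOG00000020811), which encodes the ligand-binding receptor of IL-6, fell early and was not below the healthy level at cirrhosis. It ranged from 26.4 to 98.1 CPM (median 61.2) in healthy and from 59.8 to 107 CPM (median 85.7) in cirrhotic libraries. The acute libraries had 10.1, 15.3, 19.1, 19.5 and 19.5 CPM and the fibrotic ones 17.1, 23.2, 24.0, 24.2 and 26.0 CPM. All of these lay below every healthy and cirrhotic library, and healthy and cirrhotic libraries overlapped. The log2 fold-change from healthy LSECs was -1.74 in acute injury (SE 0.322, adjusted p = 0.000325) and -1.20 in fibrosis (SE 0.294, adjusted p = 0.00277). Between cirrhosis and healthy LSECs it was 0.51 with a 95% interval from -0.09 to 1.11 (adjusted p = 0.134), and Il6r was DEG there only when healthy replicate 1 was left out (0.68, adjusted p = 0.0424) or TMM was not used (0.85, adjusted p = 0.0124). From fibrosis to cirrhosis it rose by a log2 fold-change of 1.76 (SE 0.172, adjusted p = 1.44e-06). Hepatocytes also carry this receptor, and the hepatocyte list was lowest in the acute libraries (143 to 922 CPM). It summed to 1280 to 28000 CPM in healthy, 1290 to 5060 CPM in fibrotic and 3010 to 15000 CPM in cirrhotic libraries. The part of hepatocyte RNA in the differences of Il6r was not tested.

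Il6st (ENSRNOG00000013963), the gene of the shared subunit gp130, had the smallest fold differences between group means of the 5 receptor genes. Healthy libraries ranged from 728 to 1650 CPM (median 937), acute ones from 847 to 1060 CPM, fibrotic ones from 810 to 925 CPM and cirrhotic ones from 1090 to 1360 CPM (median 1310). Healthy libraries overlapped with every other group. The log2 fold-change from healthy LSECs was -0.10 in acute injury (95% interval -0.60 to 0.41, adjusted p = 0.716), -0.18 in fibrosis (-0.68 to 0.31, adjusted p = 0.481) and 0.26 in cirrhosis (-0.19 to 0.71, adjusted p = 0.304). Without TMM the value in cirrhosis was 0.60 (adjusted p = 0.0393), a DEG. The cirrhotic libraries all lay above the fibrotic ones, with a log2 fold-change of 0.49 (SE 0.0842, adjusted p = 0.000176) that stayed under the required fold.

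Lifr (ENSRNOG00000011696), which encodes the receptor of LIF and a partner in the CNTF receptor complex, showed the deepest early fall among the tested receptors. Its levels were 29.4, 35.9, 42.0, 52.8 and 116 CPM in acute injury and 61.3, 61.6, 65.7, 85.0 and 101 CPM in fibrosis. Healthy libraries ranged from 237 to 1250 CPM (median 403), the highest 2 at 1183 and 1250 CPM, and cirrhotic ones from 482 to 823 CPM (median 659). Acute and fibrotic libraries lay below all healthy and cirrhotic ones. The log2 fold-change from healthy LSECs was -3.38 in acute injury (SE 0.477, adjusted p = 3.82e-05) and -2.73 in fibrosis (SE 0.415, adjusted p = 8.25e-05). From fibrosis to cirrhosis it rose by 3.08 (SE 0.164, adjusted p = 7.61e-09), and cirrhosis against healthy LSECs gave 0.30 with a wide 95% interval from -0.50 to 1.10 (adjusted p = 0.5). Weighting libraries by their quality gave 0.75 for that last difference (adjusted p = 0.00969), past both thresholds. The LSEC marker sum was also lowest in acute and fibrotic libraries, and its part in the early fall of Lifr was not tested.

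Osmr (ENSRNOG00000033192), the oncostatin M receptor gene, was the only receptor gene whose mean lay above the healthy mean at every stage. Healthy libraries ranged from 34.7 to 226 CPM (median 65.3), with healthy replicate 3 the single one above 72.7 CPM. The acute libraries had 59.7, 80.1, 94.6, 109 and 180 CPM, the fibrotic ones 120, 138, 143, 145 and 148 CPM, and the cirrhotic ones ranged from 73.9 to 262 CPM (median 221). All neighbouring groups overlapped. Osmr rose by a log2 fold-change of 1.14 in fibrosis (SE 0.385, adjusted p = 0.0174) and of 1.41 in cirrhosis (SE 0.433, adjusted p = 0.0142), both against healthy LSECs. edgeR's quasi-likelihood test gave 0.83 for fibrosis (adjusted p = 0.0874) and thus no DEG. In acute injury the difference was 0.59 (SE 0.433, adjusted p = 0.232), and it passed both thresholds without healthy replicate 3 (0.97, adjusted p = 0.016), with library weights (0.85, adjusted p = 0.0365) or without TMM (0.99, adjusted p = 0.0375). Cirrhosis against fibrosis gave 0.32 (adjusted p = 0.307), and 0.59 (adjusted p = 0.00204) when cirrhosis replicate 2, the lowest of its group, was left out. Stellate cells and fibroblasts, which also respond to oncostatin M, had 9 listed markers detected in each group, summing to 280 to 785 CPM in healthy, 1320 to 2120 CPM in acute, 1280 to 1710 CPM in fibrotic and 632 to 2040 CPM in cirrhotic libraries. Reln carried most of that sum in acute injury and fibrosis (mean 1670 and 1350 CPM), and the other 8 markers summed to 163 to 605 CPM in healthy, 8.97 to 31.9 CPM in acute, 37.4 to 173 CPM in fibrotic and 493 to 1800 CPM in cirrhotic libraries. The part of these cells in Osmr was not tested.

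**Figure D3:**
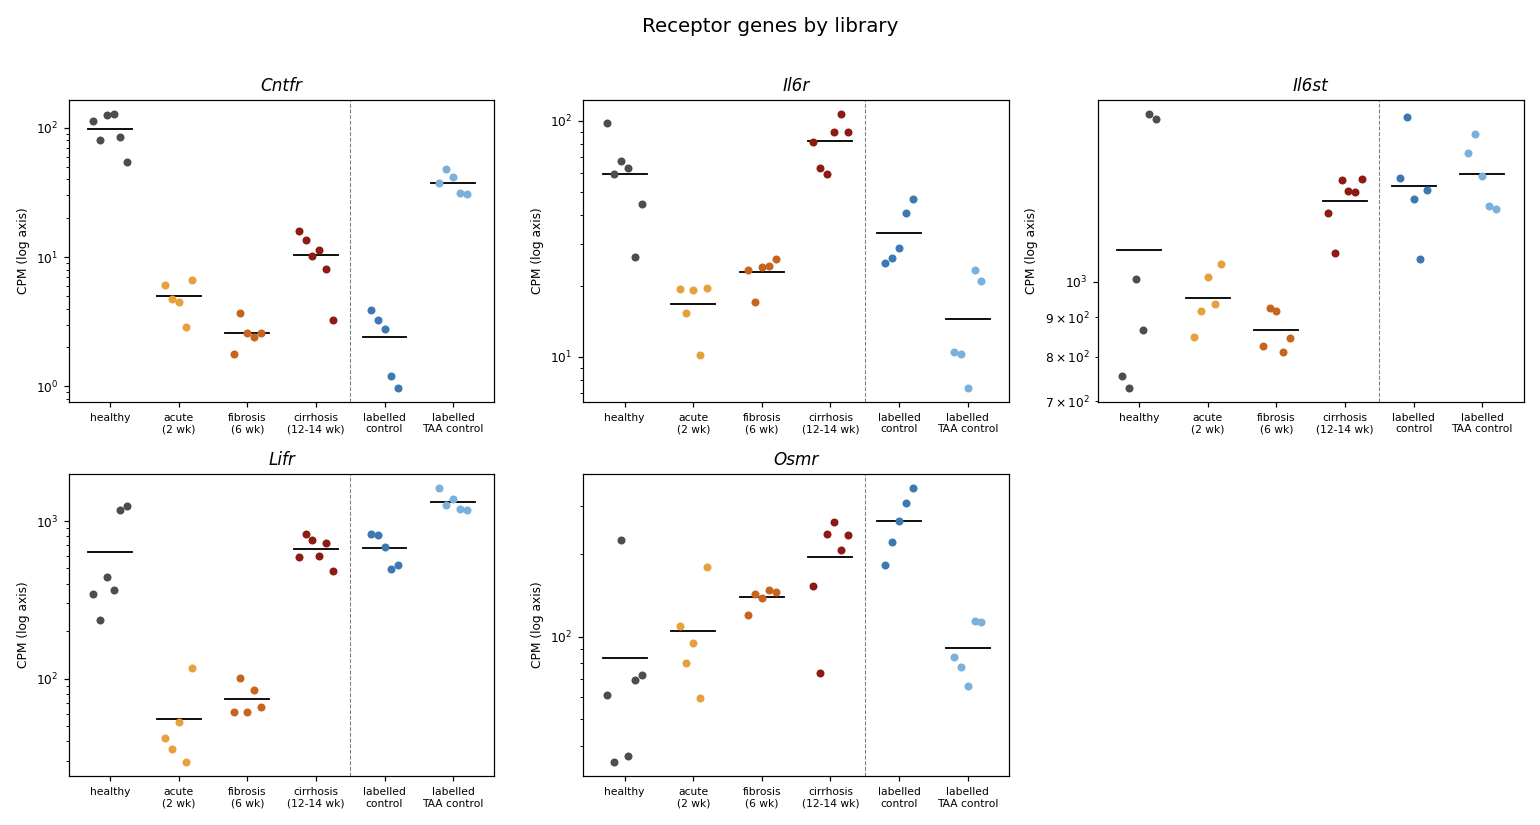
CPM (log axis) of the 5 receptor genes, with 1 point per library and the group mean as a line; the dashed line separates the CCl4 from the TAA experiment, which were scaled separately. Cntfr is highest in healthy libraries, Il6r and Lifr dip in acute injury and fibrosis, Il6st shows little spread between group means, and Osmr is lowest on average in healthy libraries.

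Il6 (ENSRNOG00000010278), the gene of the cytokine itself, had the largest difference between cirrhotic and healthy LSECs among the 9 tested members. Cirrhotic libraries ranged from 28.6 to 43.3 CPM (median 36.6) and healthy ones from 0.62 to 5.66 CPM (median 2.02), where counts were low, at 18 to 139 per library. The acute libraries had 2.24, 3.16, 5.30, 5.49 and 19.2 CPM and the fibrotic ones 5.10, 7.38, 7.80, 8.60 and 12.8 CPM. Every cirrhotic library lay above all others of the CCl4 experiment, and the other groups overlapped with their neighbours. The log2 fold-change from healthy LSECs was 4.17 in cirrhosis (SE 0.338, adjusted p = 2.43e-05) and 2.10 in fibrosis (SE 0.415, adjusted p = 0.000608), and cirrhosis exceeded fibrosis by 2.12 (SE 0.197, adjusted p = 9.46e-07). In acute injury it was 1.41 (SE 0.595, adjusted p = 0.0457), where replicate 8 at 19.2 CPM stood above the rest. That call was lost without acute replicate 1 (1.42, adjusted p = 0.0683), 3 (1.40, adjusted p = 0.0711) or 8 (0.99, adjusted p = 0.0844), without healthy replicate 2 (1.07, adjusted p = 0.105) or 5 (1.34, adjusted p = 0.0724), and with library weights (1.22, adjusted p = 0.0906). Macrophages can make IL-6, and their 9 markers summed to a similar range in healthy and cirrhotic libraries (281 to 2700 and 681 to 2560 CPM). The stellate cell or fibroblast markers were higher on average in cirrhotic libraries, with sums of 632 to 2040 CPM against 280 to 785 CPM and a mean of 924 against 223 CPM for Col3a1, a collagen gene. The part of either cell type in the difference was not tested.

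The promoter window of Il6 is shown because this gene had the largest fold-change from healthy LSECs at cirrhosis among the tested members. Another reason is that induction of Il6 in many cells runs through elements close to its start. RefSeq windows of the GRCr8 assembly, from 250 bases before to 50 bases after the annotated start, were at hand for 7 of the 10 members (not Cntfr, Lif and Osm). In the window of Il6 (chr4:5894526-5894825, minus strand, GRCr8) capitals mark 3 motifs, which are TGACGTCA, a cyclic AMP response element, TTGTGCAAT, a C/EBP site, and GGGATTTTC, part of an NF-kappaB site:
Il6: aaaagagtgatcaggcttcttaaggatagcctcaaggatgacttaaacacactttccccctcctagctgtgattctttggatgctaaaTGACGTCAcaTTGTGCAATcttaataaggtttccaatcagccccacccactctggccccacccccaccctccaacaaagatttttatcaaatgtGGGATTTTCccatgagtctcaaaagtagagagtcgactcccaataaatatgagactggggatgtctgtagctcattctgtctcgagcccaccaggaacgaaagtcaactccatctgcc
The matches lie 162 to 155, 152 to 144 and 68 to 60 bases before the start. Searched on both strands and without mutual overlap, the motifs occur in 1.83%, 0.173% and 0.251% of 33469 rat windows of this length, and their letters were settled with the Il6 window in view. None of the other 6 windows held any of them. The STAT motif TTCNNNGAA was in 0 of the 7 windows, against 8.87% of all windows, and the same held for TGAGTCA of AP-1 (4.63% of all windows), the palindrome TTGCGCAA of C/EBP (0.17%) and TATAAA (14.2%), which says only that these letters are not in these stretches of 300 bases. A match describes the sequence and says nothing of binding in these cells.

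Lif (ENSRNOG00000007002), the gene of leukaemia inhibitory factor, rose early and was lower again at cirrhosis. The acute libraries had 36.2, 68.7, 71.9, 88.0 and 102 CPM and the fibrotic ones 57.5, 74.4, 78.6, 83.2 and 83.2 CPM. All of these exceeded the healthy libraries, which ranged from 5.00 to 28.8 CPM (median 19.7), and the cirrhotic ones, from 18.4 to 33.7 CPM (median 27.0). Acute and fibrotic libraries also stood apart in their LSEC marker and immediate-early sums. The part of this in the level of Lif was not tested. The log2 fold-change from healthy LSECs was 2.22 in acute injury (SE 0.424, adjusted p = 0.000413) and 2.38 in fibrosis (SE 0.377, adjusted p = 0.000115), and cirrhosis lay below fibrosis by -1.55 (SE 0.164, adjusted p = 3.06e-06). Healthy and cirrhotic libraries overlapped, with a log2 fold-change of 0.79 (95% interval -0.02 to 1.59, adjusted p = 0.0883). It passed both thresholds without healthy replicate 1 (0.94, adjusted p = 0.056), 3 (0.96, adjusted p = 0.046) or 4 (0.92, adjusted p = 0.0663) or cirrhosis replicate 2 (0.88, adjusted p = 0.0657), without the low-count filter (0.80, adjusted p = 0.087), in a single fit over the CCl4 libraries (0.78, adjusted p = 0.045) and without TMM (1.11, adjusted p = 0.0131).

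Osm (ENSRNOG00000024390), the oncostatin M gene, was lowest in acute injury and fibrosis. Healthy libraries ranged from 7.65 to 31.8 CPM (median 16.3) and cirrhotic ones from 8.60 to 15.6 CPM (median 11.7), whereas acute libraries had 3.16, 4.35, 4.47, 4.75 and 5.06 CPM and fibrotic ones 1.63, 2.54, 2.87, 3.46 and 6.31 CPM. Acute and fibrotic libraries lay below every healthy and cirrhotic one. Osm fell by 1.83 on the log2 scale in acute injury (SE 0.36, adjusted p = 0.00051) and by 2.29 in fibrosis (SE 0.429, adjusted p = 0.000421), and was 1.87 higher in cirrhosis than in fibrosis (SE 0.303, adjusted p = 0.000119). Cirrhosis against healthy LSECs gave -0.48 (95% interval -1.15 to 0.20, adjusted p = 0.206), which passed both thresholds without healthy replicate 6 (-0.72, adjusted p = 0.0287) or with library weights (-0.67, adjusted p = 0.0225). Oncostatin M is known mainly from myeloid cells, and the macrophage markers were also lowest in acute and fibrotic libraries, at 28.3 to 201 CPM against at least 281 CPM in healthy and cirrhotic ones. The 8 neutrophil markers summed to 3.72 to 44.7 CPM in healthy and 2.65 to 14.1 CPM in cirrhotic libraries but only 0.26 to 2.68 CPM in acute and fibrotic ones, with Ltf at 0 in acute injury. The part of these cells in the level of Osm was not tested.

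Stat3 (ENSRNOG00000019742), the transcription factor of the pathway, changed less than most other members. Healthy libraries ranged from 600 to 1400 CPM (median 824) and acute ones from 412 to 638 CPM. Fibrotic ones ranged from 464 to 538 CPM and cirrhotic ones from 487 to 869 CPM (median 841). Groups next to each other in the order of means overlapped, whereas every fibrotic library lay below all healthy ones. Its log2 fold-change from healthy LSECs was -0.79 in acute injury (SE 0.201, adjusted p = 0.00333), -0.71 in fibrosis (SE 0.18, adjusted p = 0.00334) and -0.17 in cirrhosis (95% interval -0.63 to 0.29, adjusted p = 0.51). The fibrosis value slipped under the required fold without healthy replicate 3, the highest library (-0.58, adjusted p = 0.00144). Without TMM it was -0.31 (adjusted p = 0.0685), and the acute value -0.37 (adjusted p = 0.0464), neither a DEG. From fibrosis to cirrhosis Stat3 rose by 0.60 (SE 0.146, adjusted p = 0.00244), just above the required fold, and it went under that fold without cirrhosis replicate 3 (0.57), 5 (0.58) or 6 (0.57), without fibrosis replicate 12 (0.58) or 13 (0.58) and without TMM (0.49).

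Socs3 (ENSRNOG00000002946), the feedback inhibitor, had the largest difference from healthy LSECs of the 9 tested members in acute injury and in fibrosis. The acute libraries had 20.5, 23.1, 24.5, 30.6 and 31.4 CPM and the fibrotic ones 21.2, 24.7, 29.1, 32.6 and 48.0 CPM, whereas healthy libraries ranged from 820 to 2240 CPM (median 1640) and cirrhotic ones from 673 to 904 CPM (median 710). Acute and fibrotic libraries were far below all others, and the lowest healthy library fell within the cirrhotic range. The log2 fold-change from healthy LSECs was -5.80 in acute injury (SE 0.263, adjusted p = 4.47e-09), 55.8-fold lower, and -5.53 in fibrosis (SE 0.29, adjusted p = 1.44e-08), 46.1-fold lower. It was higher again in cirrhosis than in fibrosis by 4.57 (SE 0.182, adjusted p = 7.68e-10), and remained below the healthy level by -1.02 (SE 0.239, adjusted p = 0.00323). Socs3 stayed DEG in these 4 comparisons under every alternative tried. The immediate-early list moved in the same order of groups, with all 12 genes lower than in healthy LSECs in acute injury and in fibrosis, and 11 of 12 higher in cirrhosis than in fibrosis. In acute injury the largest falls of that list were in Fosb (-9.83), Fos (-8.38) and Zfp36 (-6.93). The part of a response to cell isolation in the level of Socs3 was not tested.

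**Figure D4:**
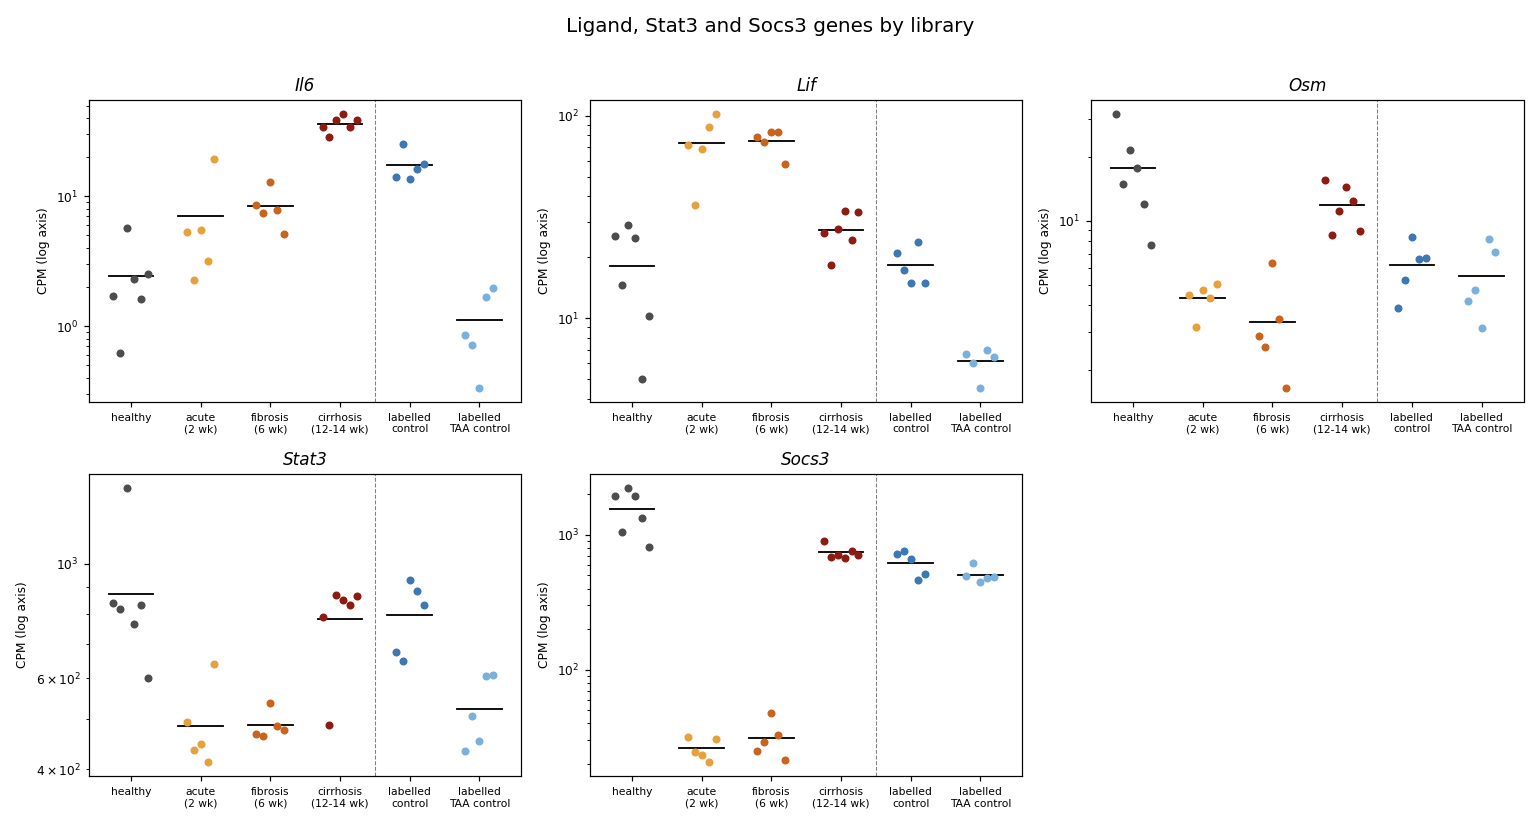
CPM (log axis) of the 3 ligand genes, Stat3 and Socs3, with 1 point per library and the group mean as a line; the dashed line separates the CCl4 from the TAA experiment, which were scaled separately. Il6 is highest in the cirrhotic libraries of the CCl4 experiment, Lif is highest and Osm lowest in acute injury and fibrosis, and Socs3 falls to under 50 CPM there.

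Differences between acute injury and fibrosis were small beside those of Socs3, Lifr and Lif from healthy LSECs. The 4 DEG between these stages were Cntfr, lower in fibrosis, and Il6r (0.61, adjusted p = 0.0473), Lifr (0.72, adjusted p = 0.127) and Osmr (0.61, adjusted p = 0.0875), higher, and the groups did not overlap for 0 of 10 members, against 18.7% of all genes. By adjusted p in limma-voom 1 of 10 was DEG, Il6r, against 11% of all genes. The difference of Cntfr was DEG in each of the 10 fits that left out 1 library, with log2 fold-changes from -0.99 to -0.66. Its value in a single limma-voom fit over the CCl4 libraries was -0.87 (adjusted p = 0.271), no DEG. That fit also takes its spread from the healthy and cirrhotic libraries, on which Cntfr was chosen. Il6r dropped under the required fold without acute replicate 4 (0.42) or fibrosis replicate 16 (0.58) or 17 (0.56), and also with edgeR (0.56), DESeq2 (0.55), library weights (0.47), a single fit over the CCl4 libraries (0.52), no TMM (0.53) or no low-count filter (0.58). Osmr was not DEG without acute replicate 2 (0.53, adjusted p = 0.183), acute replicate 4 (0.42, adjusted p = 0.156) or fibrosis replicate 16 (0.58, under the fold). Lifr was not DEG without acute replicate 1 (0.66, adjusted p = 0.231), 2 (0.60, adjusted p = 0.258), 3 (0.76, adjusted p = 0.156) or 4 (0.52, adjusted p = 0.262), or fibrosis replicate 13 (0.61, adjusted p = 0.242), 16 (0.66, adjusted p = 0.222) or 17 (0.76, adjusted p = 0.15). Osmr and Lifr were also not DEG with edgeR (0.51 and 0.54) or DESeq2 (0.50 and 0.53). The single fit over the CCl4 libraries left neither DEG (0.52 and 0.62), and without TMM Osmr was under the fold (0.55). Leaving out acute replicate 8, its highest library, turned Il6 into a DEG (1.16, adjusted p = 0.0237), as did library weights (1.02, adjusted p = 0.0352), and leaving out fibrosis replicate 15 did so for Osm (-0.66, adjusted p = 0.0925).

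Of 25 further genes of the pathway, 21 had enough counts to be tested. Against healthy LSECs 8 were higher and 12 lower in acute injury, 8 higher and 11 lower in fibrosis, and 6 higher and 8 lower in cirrhosis, where 74.1%, 71.2% and 54.5% of all genes were DEG. Their median log2 fold-changes were -0.95, -1.05 and -0.13. Among other ligands, Cntf, a cytokine that Cntfr binds, was low throughout, averaging 0.789 CPM in healthy LSECs and 1.97 CPM at cirrhosis. It was higher than in healthy LSECs by 2.92 in acute injury (adjusted p = 1.27e-05), 2.75 in fibrosis (adjusted p = 2.3e-05) and 1.40 in cirrhosis (adjusted p = 0.00659). Il11, another ligand that uses gp130, rose in fibrosis by 3.80 (adjusted p = 3.37e-05). It averaged 0.387 CPM in healthy LSECs, where libraries held 4 to 19 counts, 5.10 CPM in fibrosis and 0.327 CPM at cirrhosis. The gene of its receptor, Il11ra1, was lower by -3.73 in fibrosis (adjusted p = 5.72e-07) and by -1.68 in cirrhosis (adjusted p = 0.000335). Ebi3, a subunit of IL-27, rose in fibrosis from 3.75 to 24.0 CPM on average (3.10, adjusted p = 2.08e-05). Il27 itself averaged 0.423 CPM in healthy LSECs and 0.0674 CPM in fibrosis, with too few counts to be tested there. Of the 5 other ligands tested, 3 were higher and 2 lower in acute injury, and 3 higher and 1 lower in fibrosis. In cirrhosis 1 was higher and 1 lower. Ctf1 was lower in acute injury (-2.63, adjusted p = 0.000159) and fibrosis (-1.88, adjusted p = 0.00165), and Clcf1 in acute injury (-0.90, adjusted p = 0.0403).

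The kinases downstream did not move together. Jak2 was higher than in healthy LSECs in acute injury (1.77, adjusted p = 0.000979), fibrosis (2.29, adjusted p = 9.72e-05) and cirrhosis (1.78, adjusted p = 0.00301), whereas Tyk2 was lower in each (-2.35, -2.07 and -1.01, the last with adjusted p = 0.000846). Jak1 had log2 fold-changes of -0.19 and 0.03 in the earlier stages (adjusted p = 0.474 and 0.929) and was higher in cirrhosis (0.84, adjusted p = 0.00649). The inhibitors Socs1 and Cish fell as Socs3 did, by -4.50 and -3.85 in acute injury, -3.47 and -3.09 in fibrosis, and -1.41 and -1.23 in cirrhosis, where the adjusted p-values were 0.000863 and 0.00197. Of the other inhibitors, Socs2 rose by 1.06, 0.86 and 0.83 in the 3 stages (adjusted p = 0.0182, 0.00943 and 0.0111). Ptpn11, a phosphatase, rose by 1.51 and 1.29 in acute injury and fibrosis (adjusted p = 7.21e-06 and 2.56e-05). Pias3 (-0.95 and -1.05, adjusted p = 3.38e-05 and 1.96e-05) and Ptpn6 (-1.98 and -2.53, adjusted p = 0.00721 and 0.00269) were lower in these 2 stages. Of the 6 inhibitors other than Socs3, 2 were thus higher and 4 lower in each of them. In cirrhosis 1 of the 6 was higher and 3 lower. Pias3 ranged there from 15.3 to 24.4 CPM, below the 29.9 to 40.3 CPM of healthy libraries. Between fibrosis and cirrhosis 11 of the 21 genes were higher and 4 lower, where 34.5% and 29.7% of all genes were.

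Most of the tested genes known to respond to STAT3 or to gp130 signalling in other cells were lower in acute injury and fibrosis than in healthy LSECs. Of 20 listed, 17 were tested in acute injury, 3 higher and 14 lower, where 35.8% of all genes were higher and 38.3% lower, with a median log2 fold-change of -2.36 against -0.09 for all genes. Irf1 (-5.45), Junb (-4.96) and Cebpd (-4.85) were lowest, and Hif1a (3.23), Vegfa (2.64) and Myc (2.47) highest. In fibrosis 3 were higher and 12 lower (35.8% and 35.4% of all genes), with a median of -1.19. In cirrhosis 18 were tested, of which 3 were higher, 9 lower and 6 not DEG (28.8% of all genes were higher and 25.7% lower), with a median of -0.55, and Hif1a was higher by 1.5 (adjusted p = 0.00104). From fibrosis to cirrhosis 11 of 18 were higher and 3 lower, against 34.5% and 29.7% of all genes. Several of these genes, such as Junb and Irf1, are also induced by other signals.

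In the TAA experiment 7 of 10 members were DEG, 2 higher and 5 lower in the group labelled TAA control, where 29.4% of all genes tested were (13.5% higher and 15.9% lower), and the groups did not overlap for 7 members, against 35.1% of all genes. Cntfr, tested here because these libraries did not serve to choose it, had 0.965, 1.21, 2.76, 3.24 and 3.90 CPM in the group labelled control and 30.6, 31.3, 37.1, 41.4 and 48.0 CPM in the group labelled TAA control. The groups were far apart, with a log2 fold-change of 4.16 (SE 0.33, adjusted p = 1.35e-05) for TAA control minus control. Lifr was higher as well in the group labelled TAA control, with a mean of 1330 ± 185 CPM against 671 ± 156 CPM (SD, n = 5 each, log2 fold-change 1, adjusted p = 0.000436).

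Il6 lay on the other side. Its level was 13.5, 14.0, 16.2, 17.6 and 25.4 CPM in the group labelled control and 0.331, 0.708, 0.856, 1.68 and 1.98 CPM in the group labelled TAA control, where as few as 10 counts were behind a value. These groups did not overlap, with a log2 fold-change of -4.22 (SE 0.432, adjusted p = 4.58e-05). Osmr (-1.54, adjusted p = 0.000215), Lif (-1.59, adjusted p = 8.96e-05), Il6r (-1.35, adjusted p = 0.00484) and Stat3 (-0.61, adjusted p = 0.00515) were also lower in the group labelled TAA control. Stat3 lay close to the required fold and went under it without control replicate 3 (-0.55), 4 (-0.56) or 5 (-0.58) or TAA control replicate 10 (-0.54) or 13 (-0.56). Il6st (0.05, 95% interval -0.18 to 0.28), Osm (-0.25, -0.87 to 0.37) and Socs3 (-0.29, -0.59 to 0.01) were not DEG.

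Marker sums in these libraries differed too. Those of stellate cells or fibroblasts were 2070 to 5320 CPM in the group labelled control and 346 to 543 CPM in the group labelled TAA control, and those of hepatocytes 2210 to 5360 CPM and 641 to 1470 CPM. Immediate-early genes summed to 12900 to 27600 CPM and 45900 to 64400 CPM, with all 12 higher in the group labelled TAA control. LSEC markers summed to 22800 to 29600 CPM and 29300 to 38700 CPM. The part of these differences in those of the members was not tested. Of the TAA control libraries, replicates 14 and 15 differed less than any further pair within a group (chi-square per degree of freedom 2.96, against at least 23.6 elsewhere), though by more than sampling noise, and averaging them left the same number of members DEG (7).

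The genes whose log2 CPM followed Cntfr most closely over the 22 CCl4 libraries, among 8548 genes searched, were Tmem132e (Pearson r = 0.988), Tecpr1 and Gpr153 (both 0.975), Nt5dc2 (0.974) and Dgkz (0.972). For Socs3 they were Midn (0.994), Galnt18 (0.993), Myd88 (0.993), Tmem88 (0.993) and Lipe (0.992). These libraries share their group means, which set most of such a correlation, so the values describe likeness of pattern over the groups.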

How the data were processed

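Poly(A) RNA of rat LSECs was sequenced from strand-specific libraries, mapped by the authors to Rnor_6.0 with STAR and quantified with RSEM. The deposited values are RSEM expected counts per gene and library, neither normalized nor pooled, and 10.3% to 12.4% of the values of a library were not whole. They were rounded. Each comparison held the libraries of its 2 groups and no covariate, and was fitted in R 4.3.3 with limma-voom (limma 3.58.1), TMM and filterByExpr (edgeR 4.0.16), the normalization and test of the study. Adjusted p-values are Benjamini-Hochberg values over all genes tested. CPM use TMM factors, and log2 CPM a pseudocount of 0.5. Positive differences mean higher in the group named first. Scripts were tested on simulated data. The labels do not say that each library came from a separate rat, so p-values measure the spread between these libraries.

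The 10 members and all gene lists were chosen with earlier results of these data known. Named genes are the members, pathway genes, the largest changes of the target and immediate-early lists, marker genes at 0, and the 5 genes most like Cntfr and Socs3 with a mean log2 CPM of at least 3. Gene lengths of the build used were not at hand, so levels were not compared between genes. Alternatives were edgeR's quasi-likelihood test, DESeq2 1.42.0, adjusted p-values, no fold threshold, DESeq2 size factors, library size alone, no filter, library weights, a single fit over the CCl4 libraries, replicate number as a block, averaged replicates 14 and 15, and each library left out. Plots were made in Python 3.11.15 (matplotlib 3.10.9).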

Additional observations from a re-analysis of the deposited data

Results flagged for a closer look

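In 2 of 60 sets of a member in a group, 1 library stood far from the rest. Il6r in fibrosis replicate 13 was 17.1 CPM, while the other 4 fibrotic libraries had 23.2 to 26.0 CPM. Stat3 in cirrhosis replicate 2 was 487 CPM, while the other 5 cirrhotic libraries had 789 to 869 CPM. Both passed Dixon's test at the 95% level, which about 3 of 60 sets, or 1 in 20, would do by chance.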

How the results depend on the processing

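Of the log2 fold-changes of members, 481 of 522 under other settings and 562 of 605 with 1 library left out kept their direction and their side of the thresholds. The number of members DEG in cirrhosis against healthy LSECs rose from 3 to 6 without TMM and to 5 with library weights. In fibrosis against acute injury it fell from 4 to 1 with edgeR, with DESeq2 and with adjusted p-values, to 2 without TMM and to 0 in a single limma-voom fit over the CCl4 libraries, where the adjusted p-values of the 4 genes were 0.271 to 0.475. With 1 library left out, that number was 6 to 8 in acute injury, 7 to 8 in fibrosis and 3 to 5 in cirrhosis against healthy LSECs (5 without healthy replicate 1), 1 to 5 in fibrosis against acute injury (1 without acute replicate 4 or fibrosis replicate 16, 2 without acute replicate 2 or fibrosis replicate 17), 6 to 8 in cirrhosis against fibrosis and 6 to 7 in the TAA experiment. The log2 CPM difference of Cntfr between cirrhotic and healthy libraries, -3.25, was -3.41 to -2.92. Cntfr was chosen for that difference, so this range only describes it and tests nothing.

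Differences that were not DEG changed sign as follows. Il6st in acute injury, -0.10, became 0.31 without TMM, 0.0115 without the filter, 0.10 with library weights, 0.28 with the replicate block, 0.03 without healthy replicate 5 and 0.12 without healthy replicate 6 (range with 1 library left out -0.212 to 0.12). Il6st in fibrosis became 0.21 without TMM and 0.0618 with library weights, and in fibrosis against acute injury 0.0167 with library weights. Stat3 in cirrhosis became 0.18 without TMM, Lif in fibrosis against acute injury -0.0317 without acute replicate 2 (range with 1 library left out -0.0317 to 0.336), and Il6st in the TAA experiment -0.0197 without control replicate 4 (range -0.0197 to 0.121). The cause of these moves was not tested. Same-numbered libraries did not all deviate together (correlations 0.0311 to 0.197 for acute and -0.241 to 0.285 for cirrhotic with healthy libraries). Libraries with different numbers were not correlated for reference, so these values cannot show whether the numbers pair libraries. The replicate block left 7 members DEG in acute injury and 3 in cirrhosis, as without it. Depth limits Il6 most, with 10 to 139 counts in the healthy libraries and those labelled TAA control.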
